A study of Mus musculus with 24 samples.

Results

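Cpm, Reln, Atp1b1, Lgr5, Atp8b4, Mrgpra1, Emb and Serping1 are 8 genes, of 19938 named on the array, whose messenger RNA lay far apart between leukemic and preleukemic B cells of irradiated mice. They were chosen for that stage difference, and each was read from the probe set with the highest mean among those named for it alone. All 8 passed the filter on dim values. Cpm, Atp1b1, Lgr5, Atp8b4, Mrgpra1 and Emb encode proteins of the cell membrane, while Reln and Serping1 encode secreted proteins, so the set is one of surface and secreted genes. The leukemic groups were tumor-bearing bone marrow of 10 mice with 1 functional allele of Pax5 (Pax5+/-) and of 4 wild-type mice. The preleukemic groups were pro-B and pre-B cells from the marrow of 7 Pax5+/- and 3 wild-type mice. All mice had received 2 Gy of ionizing radiation, and no unirradiated group was analysed here. Every sample carries the label of 3 weeks after irradiation, the leukemic ones included, so the time of leukemic sampling is not known here, and neither are strain and age. The study asked how reduced activity of Pax5, the transcription factor that sets and keeps B-cell identity, acts in radiation-induced B-cell leukemia.

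Messenger RNA was measured on 24 arrays, 1 per mouse, and the values are deposited log2 signals, on which a step of 1 is a doubling. The level called dim is the 30th percentile of each array, 5.18 to 5.35, at or below which a value gives only an upper bound. The stages also differ in the material sampled, and fewer cells of a type and less RNA per cell cannot be told apart in these bulk samples. Array medians lay between 6.10 and 6.22 in leukemic samples, against 6.23 to 6.30 in preleukemic samples. The mean over 11 B-lineage markers ran from 9.46 to 10.68 in leukemic Pax5+/-, from 8.37 to 10.03 in leukemic wild-type, from 11.08 to 11.43 in preleukemic Pax5+/- and from 11.18 to 11.54 in preleukemic wild-type samples, and none of the 11 was dim on all arrays of a group. Leukemic Pax5+/- array 2 stood apart from the other 13 leukemias, with 12.2 on the first principal component of all tested genes against 29.6 to 39.8. Preleukemic wild-type array 1 stood apart too, at -17.8 against -56.1 to -44.6 in the other preleukemic samples. Its mean over 15 granulocyte markers was 10.49, against 6.55 and 6.63 in the other 2 arrays of its group. Y-linked genes were high in 0 of 4 leukemic and 3 of 3 preleukemic wild-type arrays, so within that genotype stage and sex are confounded and cannot be told apart.

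The 8 genes do different work. Cpm encodes carboxypeptidase M, a membrane-anchored enzyme that trims basic residues from the ends of peptides. Reln encodes reelin, a large extracellular glycoprotein best known for positioning migrating neurons. Atp1b1 encodes a beta subunit of the sodium pump, which a catalytic alpha subunit needs to reach the plasma membrane. Lgr5 encodes a receptor for R-spondins, which strengthen Wnt signals, and marks stem cells of the intestine. Atp8b4 encodes a P4-type ATPase of the family that flips phospholipids across membranes. Mrgpra1 encodes a Mas-related G-protein-coupled receptor, a family best known from sensory neurons. Emb encodes embigin, an immunoglobulin-type glycoprotein that brings monocarboxylate transporters to the membrane. Serping1 encodes C1 inhibitor, the plasma protease inhibitor that restrains complement and the contact system.

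Promoter sequence was at hand for 6 of the 8 genes, and 4 are shown, the 2 with the highest and the 2 with the lowest ratio of observed to expected CpG among the 6. Each runs from 250 bases before to 50 after the RefSeq start on GRCm38.p6, 5′ to 3′ on the strand of the gene, with every CpG in capitals. Cpm lies at chr10:117629250-117629549 on the plus strand, Reln at chr5:22344656-22344955 on the minus strand, Atp8b4 at chr2:126491504-126491803 on the minus strand and Mrgpra1 at chr7:47354191-47354490 on the minus strand.
Cpm: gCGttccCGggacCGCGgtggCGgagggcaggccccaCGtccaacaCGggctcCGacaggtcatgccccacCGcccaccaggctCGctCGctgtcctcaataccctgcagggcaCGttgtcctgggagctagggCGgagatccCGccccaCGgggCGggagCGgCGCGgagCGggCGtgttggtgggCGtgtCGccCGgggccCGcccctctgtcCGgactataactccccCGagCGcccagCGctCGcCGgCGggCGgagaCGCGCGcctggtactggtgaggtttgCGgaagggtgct
Reln: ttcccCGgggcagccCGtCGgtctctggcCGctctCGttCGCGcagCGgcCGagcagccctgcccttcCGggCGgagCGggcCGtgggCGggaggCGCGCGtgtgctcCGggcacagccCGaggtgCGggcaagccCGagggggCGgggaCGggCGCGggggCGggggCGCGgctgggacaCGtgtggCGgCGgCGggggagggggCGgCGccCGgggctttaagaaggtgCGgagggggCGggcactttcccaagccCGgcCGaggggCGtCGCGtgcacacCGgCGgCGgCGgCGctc
Atp8b4: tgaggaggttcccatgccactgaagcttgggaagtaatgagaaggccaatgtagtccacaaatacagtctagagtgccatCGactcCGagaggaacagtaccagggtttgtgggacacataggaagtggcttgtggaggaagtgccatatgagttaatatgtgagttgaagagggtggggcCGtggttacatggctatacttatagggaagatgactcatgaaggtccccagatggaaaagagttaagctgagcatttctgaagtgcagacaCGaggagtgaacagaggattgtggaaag
Mrgpra1: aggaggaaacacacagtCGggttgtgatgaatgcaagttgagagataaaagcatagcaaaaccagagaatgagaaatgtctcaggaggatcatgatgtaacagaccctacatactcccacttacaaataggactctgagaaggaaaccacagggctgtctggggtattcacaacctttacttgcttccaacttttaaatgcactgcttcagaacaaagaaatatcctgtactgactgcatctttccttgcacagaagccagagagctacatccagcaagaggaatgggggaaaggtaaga

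Among genes lower in leukemia, the promoter windows of Cpm, Reln and Atp1b1 held 37, 47 and 31 CpGs. Their ratios of observed to expected CpG were 0.91, 1.01 and 0.82, above those of 88.1%, 94.3% and 80.9% of the 32851 RefSeq promoters of the same length. Among genes higher in leukemia, the windows of Atp8b4, Mrgpra1 and Emb held 4, 1 and 14 CpGs, with ratios of 0.27, 0.07 and 0.56, above those of 37.8%, 9.13% and 62.0% of promoters. All 3 ratios of the lower genes were thus above all 3 of the higher genes, in sets this small and with no test. The windows were searched on both strands for CACGTG (an E-box), the palindrome of Ebf1, TGGGAA (Ikaros core), TGTGGT (Runx core) and AGGAAGT (Ets core), which 7.15%, 0.904%, 25.6%, 16.8% and 9.35% of all the promoters hold. Reln had 1 CACGTG and 1 TGGGAA, Atp8b4 had 2 TGGGAA and 2 AGGAAGT, and Mrgpra1 had 1 TGTGGT, and the 6 windows held no other match. Methylation and factor binding were not measured.

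Among the genes lower in leukemia, Cpm had the largest measured difference in Pax5+/-. Its log2 signals in the 10 leukemic Pax5+/- samples were 5.50 at the lowest, 6.45 at the median and 9.15 at the highest, against 11.39 at the lowest, 11.66 at the median and 11.75 at the highest in the 7 preleukemic Pax5+/- samples. In leukemic wild-type samples they were 7.06, 6.29, 7.13 and 5.82, against 10.70, 11.48 and 11.48 in preleukemic wild-type samples. The stages did not overlap in either genotype. In Pax5+/- the preleukemic samples were more alike than the leukemic ones, of which array 2 was the highest, with means of 6.61 ± 1.05 in leukemic and 11.60 ± 0.14 in preleukemic Pax5+/- samples (SD, n = 10 and 7). In wild type the means were 6.57 ± 0.63 in leukemic and 11.22 ± 0.45 in preleukemic samples (SD, n = 4 and 3). The leukemic minus preleukemic difference was -4.99 in Pax5+/- and -4.65 in wild type, which is 31.8-fold and 25.1-fold lower in leukemia.

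Reln had the smallest SD of the 8 genes among the 10 Pax5+/- leukemias, at values near the dim level, where small differences are compressed. The 10 leukemic Pax5+/- samples were 5.48 at the lowest, 5.65 at the median and 5.75 at the highest, against 8.96 at the lowest, 10.10 at the median and 10.56 at the highest in preleukemic Pax5+/- samples. Leukemic wild-type samples stood at 5.89, 5.65, 5.65 and 5.68, against 9.41, 10.61 and 10.47 in preleukemic wild-type samples. Means were 5.63 ± 0.09 in leukemic and 10.01 ± 0.57 in preleukemic Pax5+/- samples (SD, n = 10 and 7), so here the preleukemic samples spread more widely. All 14 leukemias lay a little above the dim level, and the differences were -4.38 in Pax5+/- and -4.45 in wild type, 20.9-fold and 21.8-fold lower in leukemia.

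Atp1b1 was lower in leukemia but not dim in any sample. Leukemic Pax5+/- samples were 6.75 at the lowest, 8.12 at the median and 9.48 at the highest, against 12.40 at the lowest, 12.56 at the median and 12.67 at the highest in preleukemic Pax5+/- samples. Leukemic wild-type values were 8.94, 8.52, 7.20 and 7.19, against 12.25, 12.55 and 12.58 in preleukemic wild-type samples. Leukemic Pax5+/- samples spread over more than 2 log2 units and preleukemic Pax5+/- samples over less than 0.5, with no overlap. The differences were -4.41 in Pax5+/- and -4.49 in wild type, 21.2-fold and 22.5-fold lower.

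Lgr5 was at or near the dim level in nearly every leukemia. Leukemic Pax5+/- samples were 5.08 at the lowest, 5.17 at the median and 6.30 at the highest, and 8 of the 10 were at or below the dim level. Preleukemic Pax5+/- samples were 8.04 at the lowest, 8.45 at the median and 8.86 at the highest. Leukemic wild-type values were 5.26, 5.18, 5.12 and 5.34, 2 of 4 at or below the dim level, against 9.16, 9.44 and 9.41 in preleukemic wild-type samples. With dim values set to their array's dim level, Lgr5 was at least 8.68-fold lower in leukemic Pax5+/- and at least 16.9-fold lower in leukemic wild-type samples. The single leukemia clearly above the dim level was Pax5+/- array 2, and without it the other 9 Pax5+/- leukemias reached no higher than 5.21.

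Among the genes higher in leukemia, Mrgpra1 had the widest difference and the widest spread. Leukemic Pax5+/- values in array order were 11.66, 5.81, 11.95, 11.79, 11.47, 12.63, 8.04, 11.63, 11.42 and 12.07, against 5.09 at the lowest, 5.28 at the median and 5.44 at the highest in preleukemic Pax5+/- samples, 5 of 7 of them dim. Leukemic wild-type values were 12.41, 11.19, 10.76 and 10.96, against 5.34, 5.15 and 5.17 in preleukemic wild-type samples, 2 of 3 of them dim. Of the 10 Pax5+/- leukemias, 8 lay above 11, array 7 lay between the stages and array 2 lay only 0.37 above the highest preleukemic Pax5+/- sample. The gene was at least 45.3-fold higher in leukemic Pax5+/- and at least 63.8-fold higher in leukemic wild-type samples.

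Mrgpra1 belongs to a cluster of close relatives, so its probe sets were compared. Besides its own probe set, 2 others are shared with Mrgpra2a, Mrgpra9, Mrgpra6, Mrgpra4 and Mrgpra2b. The shared sets averaged 8.96 and 8.85 in leukemic Pax5+/-, 9.63 and 9.45 in leukemic wild-type, 6.33 and 6.32 in preleukemic Pax5+/- and 7.44 and 7.30 in preleukemic wild-type samples. Their means were thus higher in leukemia in both genotypes, and the highest preleukemic wild-type sample reached 9.35 and 8.97 on them. On the own probe set of Mrgpra1 no preleukemic wild-type sample was above 5.34, so the shared sets need not follow Mrgpra1. The own probe sets of Mrgpra6 and Mrgpra4 were dim on all 24 arrays, and which relatives contribute to the shared sets cannot be told apart.

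Emb came next in size in Pax5+/-. Leukemic Pax5+/- samples were 7.75 at the lowest, 11.12 at the median and 11.44 at the highest, against 4.72 at the lowest, 5.60 at the median and 7.36 at the highest in preleukemic Pax5+/- samples, 2 of 7 of them dim. Leukemic wild-type values were 11.67, 11.38, 11.35 and 11.19, against 9.93, 7.08 and 7.04 in preleukemic wild-type samples. The ranges came within 0.39 of each other in Pax5+/- and within 1.26 in wild type, through leukemic Pax5+/- array 2 and preleukemic wild-type array 1. Emb was at least 28.2-fold higher in leukemic Pax5+/- samples, and in wild type the difference was 3.38, or 10.4-fold. The mean of the other 2 preleukemic wild-type arrays was 7.06, against 8.02 for all 3.

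Atp8b4 followed a like pattern. Leukemic Pax5+/- samples were 8.29 at the lowest, 10.08 at the median and 10.50 at the highest, against 5.18 at the lowest, 5.61 at the median and 5.87 at the highest in preleukemic Pax5+/- samples, 1 of 7 of them dim. Leukemic wild-type values were 10.03, 9.21, 9.83 and 9.07, against 8.40, 5.85 and 6.21 in preleukemic wild-type samples. Again preleukemic wild-type array 1 was the highest preleukemic sample, and it stood 0.68 below the lowest wild-type leukemia. The gene was at least 20.3-fold higher in leukemic Pax5+/- samples, and 2.71 log2 units, or 6.56-fold, higher in leukemic wild-type samples. Without preleukemic wild-type array 1 the mean of that group was 6.03, against 6.82 with it.

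Serping1 had its stages well apart in both genotypes. Leukemic Pax5+/- samples were 7.44 at the lowest, 9.31 at the median and 10.63 at the highest, against 5.15 at the lowest, 5.50 at the median and 5.91 at the highest in preleukemic Pax5+/- samples, 2 of 7 of them dim. Leukemic wild-type values were 10.11, 10.53, 9.41 and 9.75, against 5.80, 5.34 and 5.62 in preleukemic wild-type samples. The groups were 1.54 apart in Pax5+/- and 3.61 apart in wild type. Serping1 was at least 12.7-fold higher in leukemic Pax5+/- samples and 20.6-fold higher, a difference of 4.37, in leukemic wild-type samples.

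**Figure D1:**
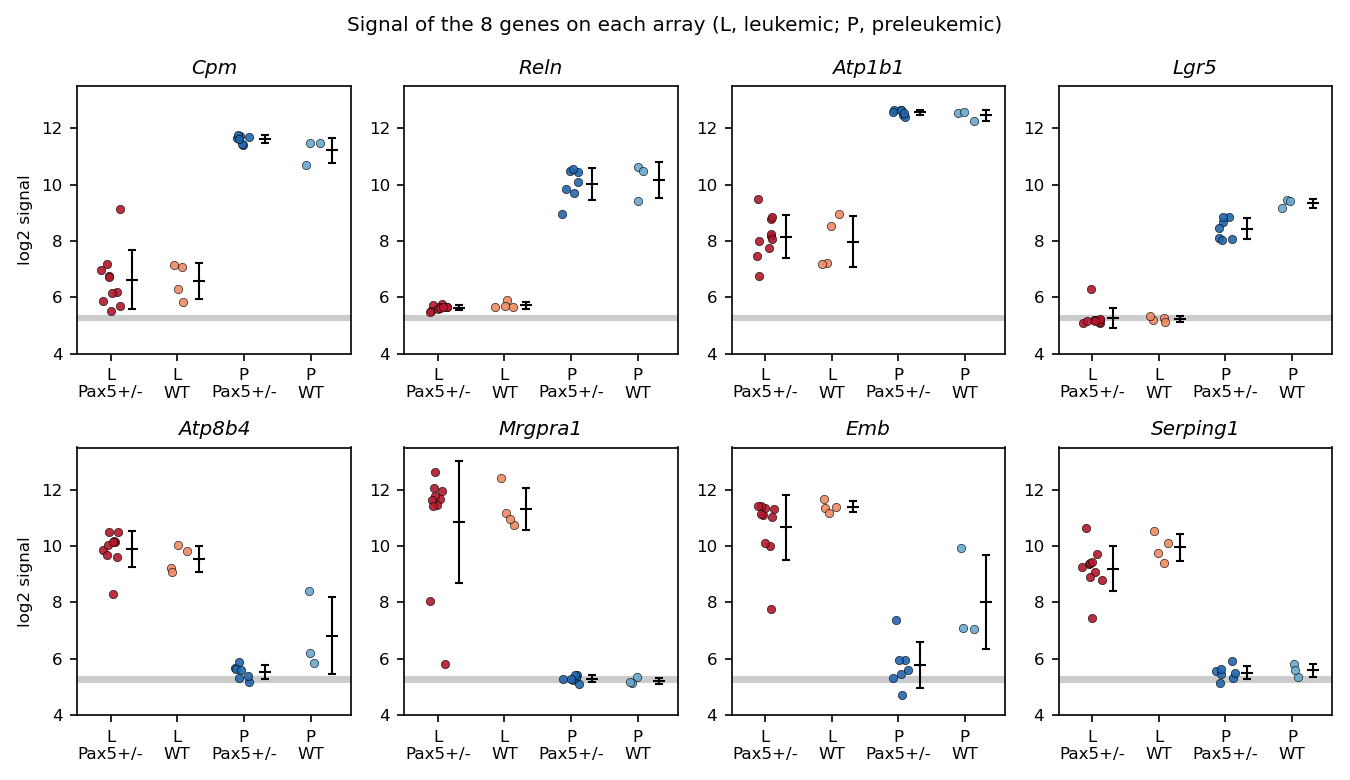
Log2 signal of the 8 genes in each of the 24 samples, 1 panel per gene, with the group mean ± SD beside the points and a grey band at the dim levels. Leukemic and preleukemic points do not overlap for any of the 8 genes in either genotype, and the nearest approach is that of Mrgpra1 in leukemic Pax5+/- array 2.

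Across the set, 4 of 8 genes were higher and 4 of 8 lower in leukemia with no overlap between stages, in Pax5+/- and in wild type alike. Over all 15647 genes tested, 11.7% were higher and 10.5% lower with no overlap in Pax5+/-, and 18.9% were higher and 20.4% lower in wild type. As the genes were chosen on this contrast, no test of it was made. By measured difference in Pax5+/-, 20 genes were at least as much higher as Serping1 at 3.70, and 25 were at least as much lower as Lgr5 at -3.17. In wild type these numbers were 65 for Atp8b4 at 2.71 and 10 for Lgr5 at -4.11. Dim values hold the measured differences of Lgr5, and in Pax5+/- of Serping1, below what the genes may differ by, so these places among all genes are not exact.

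Single leukemias were placed between the stages by taking each value's distance from the preleukemic mean as a percentage of the distance of the other leukemias of its genotype. Leukemic Pax5+/- array 2 reached 96.8% for Reln, 99.4% for Atp1b1 and 87.5% for Serping1. The same sample reached only 46.7% for Cpm, 65.2% for Lgr5, 60.9% for Atp8b4, 38.0% for Emb and 8.44% for Mrgpra1. It therefore looked leukemic for 3 genes and intermediate for 4, and was near the preleukemic mean for Mrgpra1. Over the 1590 genes that differed by at least 1 log2 unit, its median was 79.7% (quartiles 48.9% and 103%), against medians of 85.8% to 106% in the other 13 leukemias. The other Pax5+/- leukemias ran from 46.8%, for Mrgpra1 in array 7, to 145% over the 8 genes. Serping1 in array 8 was at 49.8%, and the wild-type leukemias ran from 72.9% to 126%.

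**Figure D2:**
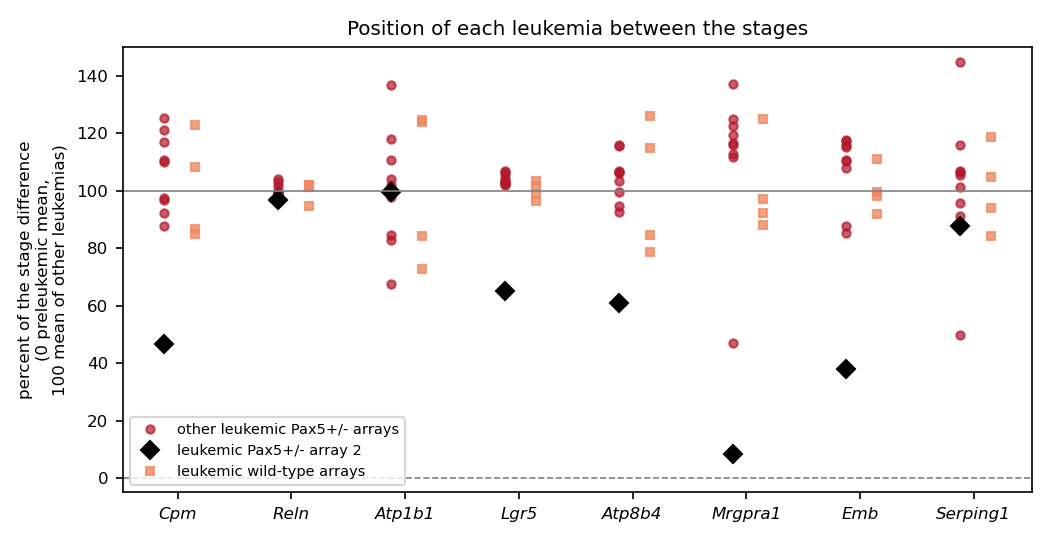
Position of each of the 14 leukemias between the preleukemic mean (0%) and the mean of the other leukemias of its genotype (100%), for each of the 8 genes. Leukemic Pax5+/- array 2 lies at 8.44% for Mrgpra1 and 38.0% for Emb, but at 99.4% for Atp1b1.

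Pax5 itself was read in every group, though which part of the gene is deleted is not stated here, so its probe set need not check the genotype labels. Its log2 signal was 6.87 at the lowest, 8.34 at the median and 11.37 at the highest in leukemic Pax5+/- samples, against 11.34 at the lowest, 11.40 at the median and 11.59 at the highest in preleukemic Pax5+/- samples. In leukemic wild-type samples it was 10.74, 6.34, 10.67 and 10.03, against 11.47 to 12.16 in preleukemic wild-type samples. Leukemic Pax5+/- array 2 had the highest Pax5 of the leukemias, 11.37 against 6.87 to 9.38 in the other 9 of its group. Its B-lineage marker mean was 10.68, against 9.46 to 10.45 in those 9, and its granulocyte marker mean was 6.47, against 6.23 to 10.60. Their part in the intermediate values was not tested.

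The genotype comparisons did not enter the choice of the 8 genes and were tested over all genes with limma, with Benjamini-Hochberg adjustment. Among preleukemic samples 1 of 8 genes was called, Lgr5, beside 0.786% of all genes tested. Lgr5 was 8.08, 8.11, 8.68, 8.04, 8.84, 8.45 and 8.86 in the 7 preleukemic Pax5+/- samples, against 9.16, 9.44 and 9.41 in the 3 preleukemic wild-type samples. Every Pax5+/- value was below every wild-type value, as for 5.39% of all genes tested in either direction. The difference was -0.90 ± 0.21 (SE, 95% interval -1.34 to -0.46; limma adjusted p = 0.046), or 1.86-fold lower in Pax5+/-. The size held, between -0.99 and -0.83, under 33 alternatives, but the call was kept in only 7 of them. Among the 24 fits that left out 1 array it was kept without leukemic Pax5+/- arrays 1 or 2 or preleukemic Pax5+/- arrays 5 or 7, and lost without any of the other 20, with limma adjusted p between 0.0515 and 0.231. With Y-linked level as a covariate the limma adjusted p was 0.0797, at a difference of -0.89.

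Emb and Atp8b4 had larger genotype differences before leukemia that were not called. Emb averaged 5.76 ± 0.82 in preleukemic Pax5+/- and 8.02 ± 1.66 in preleukemic wild-type samples (SD, n = 7 and 3), a difference of -2.25 ± 0.68 (SE; limma adjusted p = 0.169). Atp8b4 averaged 5.53 ± 0.24 and 6.82 ± 1.38 in those groups, a difference of -1.30 ± 0.43 (SE; limma adjusted p = 0.231). Both values lean on preleukemic wild-type array 1, without which the differences were -1.30 for Emb and -0.51 for Atp8b4 (limma adjusted p = 0.519 and 0.706). Beside its high granulocyte mean, that array had the highest mean of its group for plasmacytoid dendritic cell (9.76 against 7.63 and 7.80), erythroid (8.41 against 6.29 and 6.21), NK-cell (9.33 against 7.29 and 8.27), T-cell (6.78 against 5.93 and 6.11) and monocyte and macrophage markers (6.84 against 6.07 and 6.14). Their part in the values was not tested. Emb was called in 1 alternative, without leukemic Pax5+/- array 2 (limma adjusted p = 0.0385). For Cpm, Reln, Atp1b1, Mrgpra1 and Serping1 the differences were 0.38, -0.15, 0.10, 0.07 and -0.08. The interval for Mrgpra1, -1.93 to 2.08, takes its width from a spread that the fit shares over all 4 groups. The SD of Mrgpra1 was 2.16 in leukemic Pax5+/-, 0.12 in preleukemic Pax5+/- and 0.11 in preleukemic wild-type samples. Of the preleukemic values 5 of 7 and 2 of 3 were dim, so the Mrgpra1 difference says nothing about the genotypes.

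Among leukemias 0 of 8 genes were called by genotype, against 0.16% of all genes, and 1 of 8 had an unadjusted limma p under 0.05. That gene was Serping1, at 9.20 ± 0.80 in leukemic Pax5+/- and 9.95 ± 0.48 in leukemic wild-type samples (SD, n = 10 and 4). The difference was -0.75 ± 0.33 (SE, 95% interval -1.44 to -0.06; limma adjusted p = 0.588). Its unadjusted limma p was not under 0.05 with only the 2 groups compared, the replicate block or the Y-linked covariate. Nor was it without leukemic wild-type array 1 or 2, or without leukemic Pax5+/- array 2. Y-linked genes were high in 5 of 10 leukemic Pax5+/- and 0 of 4 leukemic wild-type arrays. Lgr5 was at or below the dim level in 8 of 10 leukemic Pax5+/- and 2 of 4 leukemic wild-type samples, so its difference of 0.04 says nothing about the genotypes. Reln, at -0.09, had an interval of -0.53 to 0.36. The intervals were wider for Cpm (-0.85 to 0.93), Atp1b1 (-0.54 to 0.92), Atp8b4 (-0.40 to 1.11), Emb (-1.93 to 0.48) and Mrgpra1 (-2.20 to 1.24). Each of these intervals includes 0, so for none of these genes was the genotype difference told from none.

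The difference between the stage differences of the genotypes was called for 0 of 8 genes, against 0.185% of all genes, and 2 of 8 had an unadjusted limma p under 0.05. For Lgr5 the stage difference was -3.17 in Pax5+/- and -4.11 in wild type, which differ by 0.94 ± 0.28 (SE; limma adjusted p = 0.265). For Atp8b4 it was 1.65 ± 0.56 (SE; limma adjusted p = 0.39), and for Emb 1.53 ± 0.89 (SE; limma adjusted p = 0.703). Without preleukemic wild-type array 1 these were 0.86 and 0.57, and 1 of 8 genes had an unadjusted p under 0.05. Lgr5 and Atp8b4 are near the dim level in a group, which limits these differences.

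**Figure D3:**
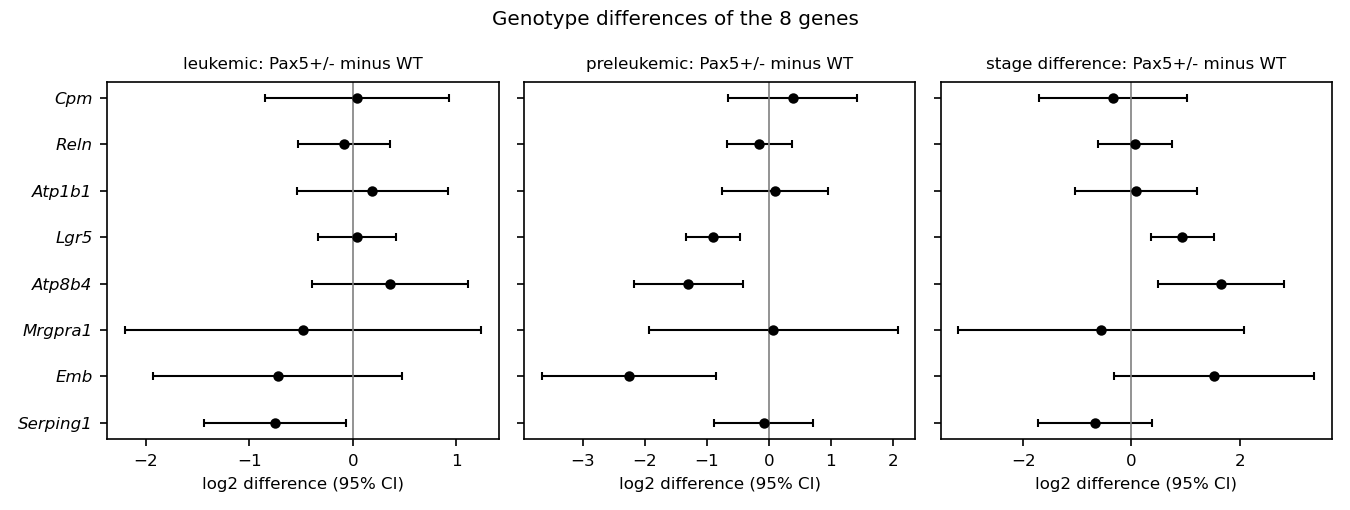
Difference Pax5+/- minus wild type of each gene on the log2 scale, among leukemic samples, among preleukemic samples and for the stage difference, with 95% intervals from limma. The horizontal scales differ between panels, and the 1 call is that of Lgr5 among preleukemic samples, at -0.90.

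Markers of other marrow cells moved with stage beside the 4 genes higher in leukemia. In Pax5+/- the limma fit called 27.8% of all genes higher and 35.1% lower in leukemia, and in wild type 18.7% higher and 20.4% lower. Against that, 8 of 11 monocyte and macrophage markers rose in Pax5+/- and 6 of 11 in wild type, and none fell. Their mean was 6.73 to 9.05 in leukemic Pax5+/- samples, against 5.91 to 6.05 in preleukemic ones, and 7.56 to 8.29 in leukemic wild-type samples, against 6.07 to 6.84 in preleukemic ones. Stromal and endothelial markers rose in 10 of 12 and fell in 1 of 12 in each genotype, with means of 7.31 to 8.62 in leukemic and 6.45 to 6.63 in preleukemic Pax5+/- samples, and of 7.88 to 8.28 in leukemic and 6.49 to 6.61 in preleukemic wild-type samples. All 6 platelet markers rose in both genotypes, with means of 8.23 to 11.13 in leukemic and 6.55 to 6.74 in preleukemic Pax5+/- samples. Of 15 granulocyte markers, 10 rose in Pax5+/- and 0 in wild type, and their mean was 6.23 to 10.60 in leukemic Pax5+/- samples, against 6.20 to 6.82 in preleukemic ones, and 8.01 to 10.01 in leukemic wild-type samples, against 6.55 to 10.49 in preleukemic ones. Of 11 B-lineage markers, 7 fell and 0 rose in each genotype. Of 6 plasmacytoid dendritic cell markers, 4 rose and 0 fell in Pax5+/-, with means of 7.46 to 9.90 in leukemic and 7.42 to 7.93 in preleukemic samples, and 0 rose and 2 fell in wild type, with means of 7.61 to 9.10 in leukemic and 7.63 to 9.76 in preleukemic samples. Of 7 erythroid markers, 0 rose and 1 fell in Pax5+/- and 2 rose and 0 fell in wild type. In Pax5+/- 1 of 6 T-cell and 1 of 5 NK-cell markers rose, and in wild type 0 of either list were called. Their part in the 4 higher genes was not tested.

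Among the 10 Pax5+/- leukemias, 40 correlations were computed, of the 8 genes with Pax5 and with 4 marker lists. Serping1 was correlated with the monocyte and macrophage mean (Pearson r = 0.903, permutation p adjusted over the 40 = 0.0366; Spearman rho = 0.818, adjusted permutation p = 0.244). It was likewise correlated with the stromal and endothelial mean (r = 0.899, adjusted permutation p = 0.0366; rho = 0.758, adjusted permutation p = 0.306). The r was 0.683 and 0.505 without the 2 samples farthest from the median of the marker mean, and neither passed without array 2, where r was 0.900 and 0.905 (adjusted exact permutation p = 0.102 and 0.0745, n = 9). The other 38 relations did not pass. Pax5 gave r = 0.843 with Cpm, -0.859 with Mrgpra1, 0.810 with Lgr5 and -0.750 with Emb (adjusted permutation p = 0.0978, 0.0785, 0.277 and 0.246). Without the 2 farthest samples these were 0.206, -0.714, 0.080 and 0.156, so the relations with Cpm, Lgr5 and Emb rest on those samples. Among the 28 pairs of the 8 genes, 8 had an absolute r of at least 0.7, and none of those 8 had it without array 2. Reln with Serping1 had r = 0.523 with array 2 and 0.723 without it, given as a description with no test.

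**Figure D4:**
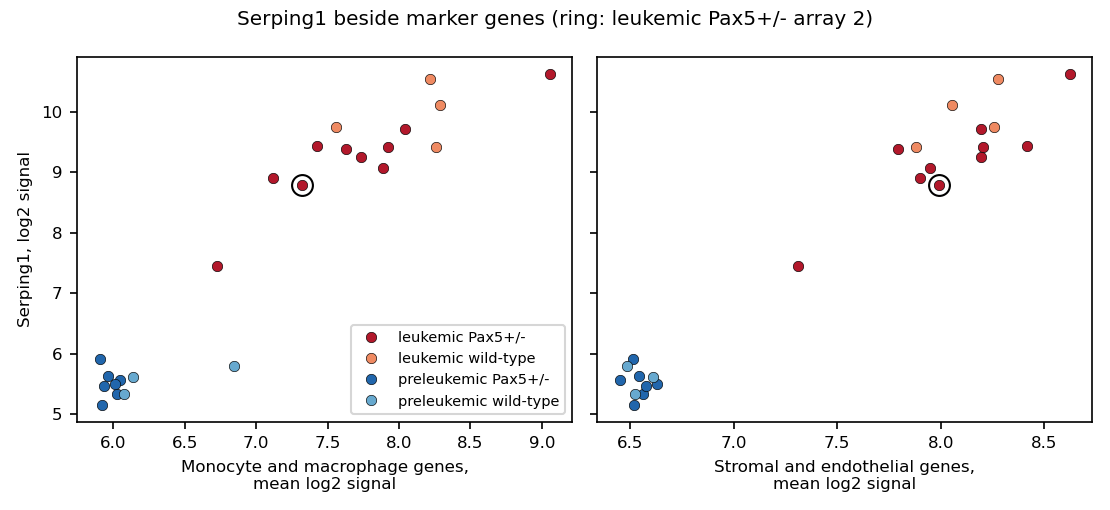
Serping1 log2 signal against the monocyte and macrophage marker mean and the stromal and endothelial marker mean, with 1 point per sample, groups by colour and leukemic Pax5+/- array 2 ringed. Among the 10 Pax5+/- leukemias r is 0.903 and 0.899, and the lowest of these 10 is array 8, at a Serping1 of 7.44.

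Lists of partners of the 8 genes are counted against the shares of all genes called, 62.9% in Pax5+/- and 39.1% in wild type in either direction. Of 16 tested genes of the complement and contact system, the setting of Serping1, 9 rose and 3 fell in leukemic Pax5+/- samples and 4 rose and 2 fell in leukemic wild-type samples, which is 12 of 16 in Pax5+/- and 6 of 16 in wild type. C1qb, a chain of the C1q recognition protein whose C1 complex C1 inhibitor blocks, was 3.19 ± 0.28 higher in Pax5+/- (SE; 9.12-fold) and 3.27 higher in wild type. C1qc and C1qa rose by 2.38 and 1.76 in Pax5+/- and by 2.26 and 1.84 in wild type, and all 3 C1q genes are also on the monocyte and macrophage list. Cd55, a membrane protein that protects cells from complement, fell by 2.62 ± 0.20 in Pax5+/- (SE; limma adjusted p = 4.92e-10; measured 6.13-fold lower). Of the 10 leukemic Pax5+/- samples 2 were dim for it, so the fall there may be larger. Cd55 stood at -2.33 in wild type (5.04-fold lower). In wild type the split was 8 higher and 2 lower with arrays centred on their medians.

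Of 6 embigin partners, 2 rose and 0 fell in each genotype, where 27.8% of all genes rose in Pax5+/- and 18.7% in wild type. Slc16a7, a monocarboxylate transporter, averaged 9.33 in leukemic and 5.67 in preleukemic Pax5+/- samples, a rise of 3.66 ± 0.36 (SE; limma adjusted p = 2.2e-08; 12.7-fold). In wild type it averaged 8.79 in leukemic and 5.97 in preleukemic samples, a rise of 2.82 ± 0.57 (SE; limma adjusted p = 4.82e-04; 7.07-fold). Bsg, the other immunoglobulin-type chaperone of these transporters, rose by 0.49 in Pax5+/- and 0.64 in wild type. Slc16a1, a transporter paired with Bsg, was at -0.21 and 0.13 and was not called, nor was Nptn, a relative of Bsg, at -0.24 and -0.30.

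Of 9 sodium pump genes, 3 rose and 4 fell in Pax5+/- and 4 rose and 2 fell in wild type, so 7 of 9 and 6 of 9 were called, against 62.9% and 39.1% of all genes. In Pax5+/- the split was 3 and 2 with centred arrays and 2 and 5 with quantile normalization repeated. Fxyd5, a small regulator of the pump, rose by 2.60 ± 0.18 in Pax5+/- (SE; limma adjusted p = 9.84e-11; 6.08-fold) and by 1.58 ± 0.28 in wild type (SE; 2.98-fold), opposite to Atp1b1. Atp1b3, another beta subunit, rose by 0.43 and 0.41, and its wild-type call was lost without preleukemic wild-type array 2 (limma adjusted p = 0.0673). Fxyd4, another small regulator, fell by 0.37 and 0.34, with group means of 5.50 to 5.86, not far above the dim level. Its wild-type call was lost when only the 2 groups compared were fitted (limma adjusted p = 0.0598).

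Fxyd6, of the same family of regulators, was the only gene of the 8 partner lists called by genotype. It averaged 7.56 in preleukemic Pax5+/- and 8.29 in preleukemic wild-type samples, a difference of -0.73 ± 0.08 (SE; limma adjusted p = 3.5e-05). Among leukemias it averaged 6.98 in Pax5+/- and 7.02 in wild type. Its fall with stage was 0.58 in Pax5+/- and 1.27 in wild type, and these differed by 0.69 ± 0.11 (SE; limma adjusted p = 0.00358). Both calls were kept in every alternative fit in which they could be computed, 33 and 32 of them.

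Of 16 Wnt and R-spondin genes, the setting of Lgr5, 3 rose and 4 fell in Pax5+/- and 2 rose and 2 fell in wild type. The 7 of 16 and 4 of 16 called were smaller shares than the 62.9% and 39.1% of all genes. With arrays centred, 3 rose and 1 fell in Pax5+/-. Lrp5, a Wnt co-receptor, rose by 2.15 ± 0.16 in Pax5+/- (SE; limma adjusted p = 1.96e-10) and by 1.71 in wild type. Znrf3, an enzyme that removes Wnt receptors and is itself cleared through R-spondin and Lgr receptors, rose by 1.10 and 1.02. Lef1, a transcription factor that carries Wnt signals, fell by 3.12 in Pax5+/- and 3.64 in wild type. Lgr4, a relative of Lgr5, was dim in all preleukemic samples and was not called, at 0.54 in Pax5+/- and 0.38 in wild type.

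Of 9 reelin pathway genes tested, 3 rose and 2 fell in Pax5+/- and 3 rose and 4 fell in wild type, so 5 of 9 and 7 of 9 were called, against 62.9% and 39.1% of all genes. Fyn and Src, kinases that relay the reelin signal, rose by 1.38 and 0.73 in Pax5+/- and by 0.88 and 0.75 in wild type, and Itgb1, an integrin subunit, rose by 1.34 and 0.79. The Fyn call in wild type was lost when only the 2 groups compared were fitted (limma adjusted p = 0.0581). Lrp8, a reelin receptor, was at 0.46 and -0.03 and was not called.

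Of 13 flippase genes, 4 rose and 4 fell in Pax5+/- and 2 rose and 4 fell in wild type, so 8 of 13 and 6 of 13 were called, near the 62.9% and 39.1% of all genes. With centred arrays 5 rose and 3 fell in Pax5+/-. Atp10a rose by 1.21 and 1.45, Atp8a1 fell by 0.88 and 1.24, and Atp10d fell by 0.50 and 0.66, in Pax5+/- and in wild type. The wild-type calls were kept in 25 of 33 alternatives for Atp10a and 30 of 33 for Atp10d, with limma adjusted p up to 0.123 and 0.0683. Among those that ended the Atp10a call were fits without leukemic wild-type array 2, 3 or 4 or preleukemic wild-type array 2 or 3, and leaving out preleukemic wild-type array 2 or 3 also ended that of Atp10d. Atp11a rose by 0.63 in Pax5+/- and was not called in wild type, at 0.53.

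Of 9 carboxypeptidase genes, 1 rose and 2 fell in Pax5+/- and 1 rose and 3 fell in wild type, which became 2 and 0 and 2 and 2 with centred arrays. The 3 of 9 and 4 of 9 called compare with 62.9% and 39.1% of all genes. Cpq rose by 0.51 and 0.69, the wild-type call being lost with Y-linked level as a covariate (limma adjusted p = 0.0623). Cpn1, a subunit of plasma carboxypeptidase N, fell by 2.21 in wild type (limma adjusted p = 0.0071), where 1 of 4 leukemic samples was dim. In Pax5+/- it was at -0.24 and not called, with 5 of 10 leukemic and 3 of 7 preleukemic samples dim. That value therefore says little about a stage change. Cpa3, a mast cell protease, and Cpd were not called. Only 5 of 16 Mas-related receptor genes on the array were bright enough to test, of which 1 rose and 3 fell in Pax5+/- and 0 were called in wild type, against 62.9% and 39.1% of all genes, and with centred arrays 1 rose and 1 fell in Pax5+/-. Mrgprd fell by 0.24, Mrgpra3 rose by 0.20 from values that were dim in all preleukemic samples, and Mrgprf fell by 0.16, a call lost with centred arrays, and Mrgpre was not called, at 0.18. Differences of that size stand far below that of Mrgpra1. Probe sets shared by several genes, which include the 2 that Mrgpra1 shares with relatives, are not in these counts. Another, shared by Mrgpra9 and Mrgprx3-ps, averaged 5.91 in leukemic and 4.45 in preleukemic Pax5+/- samples. In wild type its means were 6.60 and 4.56, and it was dim in all preleukemic samples.

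**Figure D5:**
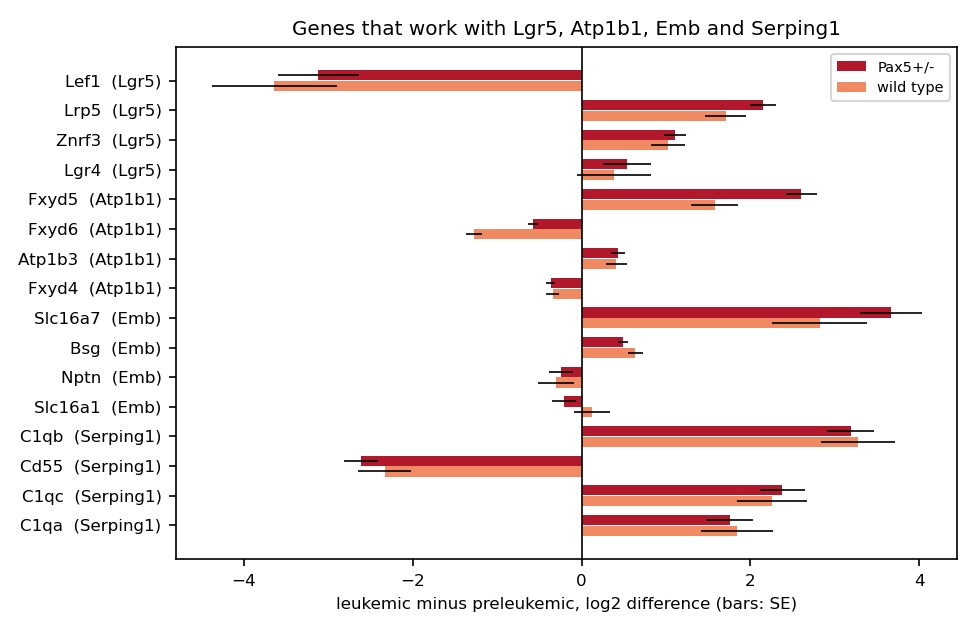
Leukemic minus preleukemic log2 difference of the 16 genes named from the lists of Lgr5, Atp1b1, Emb and Serping1 (in brackets), as bars from 0 for Pax5+/- and wild type with standard errors. Slc16a7 at 3.66, C1qb at 3.19 and Fxyd5 at 2.60 lead upward in Pax5+/-, and Lef1 at -3.12 and Cd55 at -2.62 downward.

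The genes most like each of the 8 within groups were found from the Pearson correlation of deviations from the group means over the 24 arrays, given as a description with no test. Cpm was most like Tstd2 (0.901), Gne (0.867) and Abca6 (0.834). Reln was most like Jhy (0.826), Kcnh8 (0.797) and Habp2 (0.780). Atp1b1 was nearest to Gpr65 (0.833), Agpat4 (0.789) and Dusp7 (0.771), and Lgr5 to Iftap (0.877), Slc44a4 (0.828) and Cat (0.822). Among the genes higher in leukemia, Atp8b4 was nearest to Ptpre (0.884), Rgs18 (0.873) and Net1 (0.870), and Mrgpra1 to Slc9a9 (0.850), Pam (0.843) and Nrip1 (0.830). Emb was nearest to Tlr7 (0.842), Bmyc (0.838) and Il18rap (0.818), and Serping1 to Lamp1 (0.919), Cp (0.895) and Sdc3 (0.876). The points share arrays that stand apart, leukemic Pax5+/- array 2 and preleukemic wild-type array 1 among them.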

How the data were processed

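The authors deposited log2 signals of 35556 probe sets, made by RMA in oligo, an R package, per the submitters' processing notes. RMA corrects background, normalizes quantiles and summarizes probes into log2 values, and small differences near background are compressed. Versions: not given in the sources used here. Of these probe sets 21789 had 1 gene symbol in the platform table. A gene was tested when it exceeded the array's 30th percentile on at least 3 arrays, which left 15647 genes. Means of the 4 groups were fitted with limma 3.58.1 in R 4.3.3 and genes were called at a Benjamini-Hochberg adjusted p under 0.05, two-sided. Correlations had two-sided permutation tests (100000 resamples, exact at 9 samples). The fit was tested on simulated data. The labels call samples biological replicates. Genes named beyond the 8 were the 4 of each partner list with the largest Pax5+/- stage difference and the 3 nearest genes of each member, with Pax5. The relatives that share probe sets with Mrgpra1 or with each other were named after their values were seen. The 8 genes, the lists and the rules were chosen with earlier results of these data known. Alternatives changed the eBayes settings, samples, array weights, filter, scaling, block and Y-linked covariate, and left out each array. No scanner files were used, and the number of arrays limits precision.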

Additional observations from a re-analysis of the deposited data

Results flagged for a closer look

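Of 24 groups of 4 to 10 samples, 5 held a sample far from the others of its group. Chance gives about 1 in 20 for a single group. Most of the 5 came from 1 array, so the groups are not independent and their count cannot be read against that rate. Among the leukemic Pax5+/- samples, array 2 was the highest for Cpm at 9.15 and for Lgr5 at 6.30, and the lowest for Atp8b4 at 8.29 and for Emb at 7.75. Among the leukemic wild-type samples, array 1 was the highest for Reln at 5.89. The stage difference of Fxyd6 in Pax5+/- minus that in wild type was 0.69 and passed the limma test of the difference itself.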

How the results depend on the processing

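All 8 genes kept non-overlapping stages in both genotypes with centred arrays and with quantile normalization repeated. Also run were the mean of all probe sets of a gene, and fits with each array of the genotype left out. Neither could bring an overlap. Each of the 8 has 1 probe set of its own, and ranges that lie apart stay apart with fewer arrays. In these settings 240 of 240 recomputed stage differences kept their sign and moved by less than the SD of the more variable stage. The genes were chosen for large stage differences, so the kept signs follow from the choice and lend no support. The largest moves came without preleukemic wild-type array 1, to 3.50 for Atp8b4 and 4.34 for Emb in wild type. The count of genes called by genotype among preleukemic samples was 1, and became 0 with array weights by group, no filter, centred arrays, quantile normalization repeated, the Y-linked covariate and the replicate block (Lgr5 -0.89, limma adjusted p = 0.261). It ran from 0 to 2 when arrays were left out in turn. The counts among leukemias and for the difference of stage differences were 0 in every alternative. Of 17 pairs of samples sharing a replicate number, 1 correlated above 0.1 (range -0.36 to 0.14), so the numbers do not pair the samples. The correlation count was 2, stayed 2 with centred arrays and was 0 without leukemic Pax5+/- replicate 2, an alternative chosen after seeing the data. Centring moved the median stage difference of all genes by 0.07. Where a group is dim, signal over background limits the fold to a bound.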
